A study of Caenorhabditis elegans with 4 samples.

Results

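The regions described here are 633 autosomal DPY-28 peaks whose only overlapping replicate calls came from 1 ChIP library, replicate 1. They were chosen from the 10867 peaks of the whole-series list as those on chromosomes I to V that shared at least 1 bp with a peak called in ChIP replicate 1 and none with a peak called in ChIP replicate 2. They made up 35.9% of the 1763 autosomal peaks in that list (exact 95% interval 33.7 to 38.2%), a share that the choice itself fixes. The measurements came from chromatin immunoprecipitation followed by sequencing (ChIP-seq) in embryos of mixed stages and both sexes of the wild-type Caenorhabditis elegans strain N2, for which the labels give 20 °C. All 4 samples came from embryos fixed with 2% formaldehyde for 30 min: 2 were ChIP DNA, precipitated with a polyclonal rabbit antibody raised to DPY-28 and purified by affinity, and 2 were input DNA. Whether the replicates were separate cultures is not stated in the labels, and neither a second antibody nor a strain lacking DPY-28 is among the samples.

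DPY-28 is a HEAT-repeat subunit that 2 condensin complexes of the worm share. In condensin I it takes part in compacting all chromosomes for cell division, and in the dosage compensation complex it belongs to a condensin that binds both X chromosomes of hermaphrodites, whose expression that complex lowers. Worm autosomes have gene-rich centres with little recombination, flanked by arms that recombine more and hold more repeats and more heterochromatin marked by methylation of histone H3 lysine 9.

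The lists behind these regions were unequal. Replicate 1 held 1384 autosomal peaks among 3274, and replicate 2 held 501 among 5244. On X, with 9098 whole-series peaks, 1.92% rested on replicate 1 alone (175 peaks, exact 95% interval 1.65 to 2.23%). Peak lists give no read depth, so all intervals cover counting error of peaks only and treat neighbouring peaks as independent, which they are not. At every region only 1 of the 2 replicates had a call, so no test over samples was possible, and the values below are descriptions without p-values. Resting on replicate 1 means here that only its list had an overlapping peak. Whether reads of replicate 2 entered the whole-series list is not stated in the sources used.

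The 633 regions lay mostly on chromosome arms. Arms were taken as everything outside the middle 33.3% of each chromosome, so they held 66.7% of the length, and 469 of the 633 regions, or 74.1% (exact 95% interval 70.5 to 77.5%), had their midpoint there. This division by length did not use mapped borders of recombination or heterochromatin. With the centre as the middle 50%, some places called arm below would be central, such as the cluster at I 4341313 to 4356204. The density was 8.52 regions per Mb on arms and 5.96 per Mb in centres, a ratio of 1.43. Among the other autosomal whole-series peaks, 60.2% of the 249 found in both replicates lay on arms (53.9 to 66.4%), 56.5% of the 299 found in replicate 2 only (50.7 to 62.2%) and 64.1% of the 582 found in neither (60.04 to 67.99%). These other groups thus had arm to centre ratios of 0.76, 0.65 and 0.89. The replicate 1 list as a whole had the same share as the regions, with 1026 of its 1384 autosomal peaks on arms, or 74.1% (71.7 to 76.4%). Over all 1763 autosomal whole-series peaks it was 65.9% (63.6 to 68.1%). Seen the other way, replicate 1 alone stood behind 40.4% of the autosomal peaks on arms (469 of 1161) and 27.2% of those in centres (164 of 602).

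**Figure D1:**
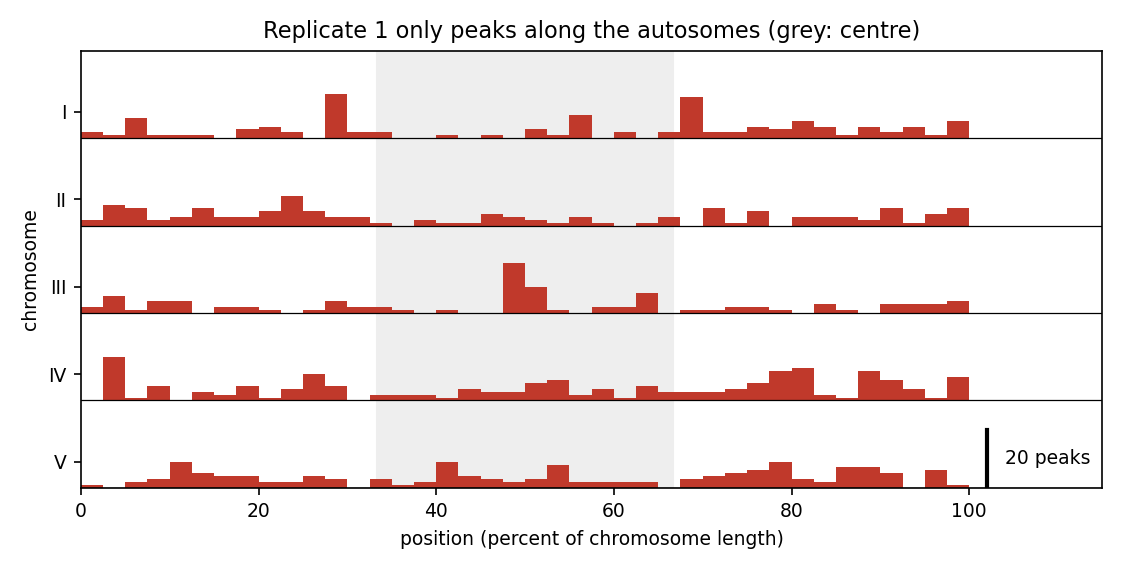
Number of replicate 1 only peaks in consecutive slices of each autosome, with position as percent of chromosome length on the horizontal axis and 1 row per chromosome; the bar at the right gives the scale of 20 peaks and the grey band marks the centre. The centres of I and II were sparsely filled, and the tallest slice of III lay in its centre, where 1 cluster held 16 peaks.

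The chromosomes differed in this. On chromosome I, 95 of 112 regions lay on arms, 84.8% (76.8 to 90.9%), at 9.45 per Mb against 3.38 per Mb in the centre. On II the count was 101 of 121, or 83.5% (75.6 to 89.6%), at 9.92 per Mb against 3.93. On IV it was 122 of 165, or 73.9% (66.5 to 80.5%), and on V 98 of 140, or 70.0% (61.7 to 77.4%). Both of these intervals included the 66.7% of length that is arm, unlike those on I and II.

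Chromosome III went the other way, with 53 of its 95 regions on arms, 55.8% (45.2 to 66.0%), and an arm to centre ratio of 0.63. Its centre held 42 regions, of which 23 belonged to 2 clusters. Without the larger cluster of 16 regions, 67.1% of the remaining 79 lay on arms (55.6 to 77.3%) and the ratio was 1.02. With each replicate 1 peak counted once, 46 of 71 lay on arms, 64.8% (52.5 to 75.8%), and the ratio was 0.92. Most of the distance of the ratio from 1 thus went with 1 cluster spanning 9.98 kb, and both of these intervals include 66.7%. On the other 4 autosomes the ratio stayed above 1 without their own largest cluster, from 1.24 on IV to 2.40 on II. On IV and V the interval of the share on arms then still included 66.7%.

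**Figure D2:**
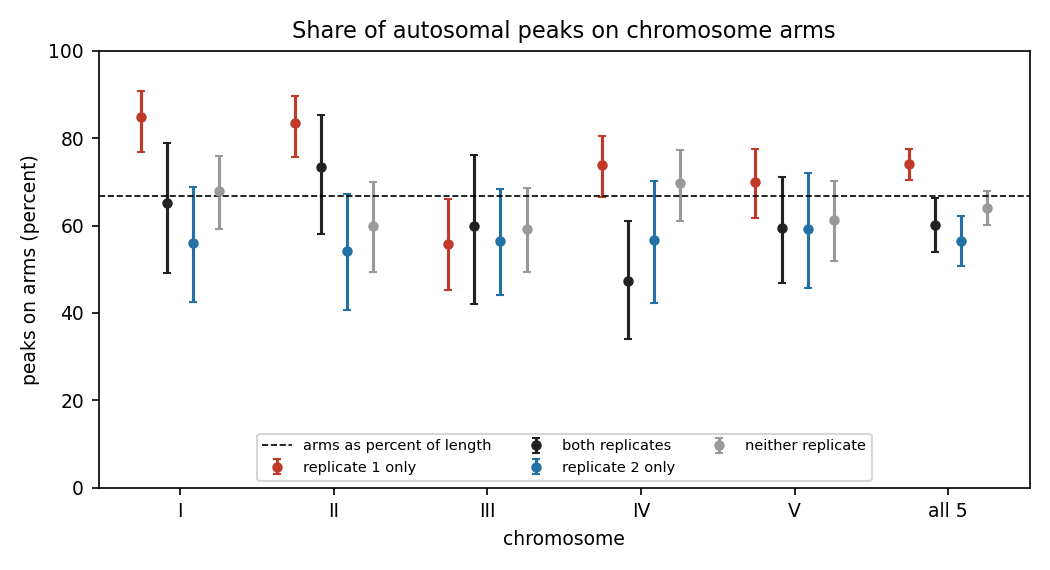
Percent of autosomal whole-series peaks on arms for each chromosome and for all 5, with points for the 4 groups of peaks by replicate support, bars for exact 95% intervals and a dashed line at 66.7%, the share of length on arms. The replicate 1 only peaks reached 84.8% on I and 83.5% on II and 55.8% on III.

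Arms were not filled evenly. The left arm of II held 11.4 regions per Mb and the right arm of IV 12.0, while the arms of III held 6.31 (left) and 5.22 (right) and the left arm of V 5.73. On the left arm of II, 58 of the 100 autosomal whole-series peaks, 58.0% (47.7 to 67.8%), rested on replicate 1 alone; in the centre of I this was 17 of 99, or 17.2% (10.3 to 26.1%). Folded from both ends, the outermost 10% of length at each end held 143 regions (22.6%), the next 10% held 133 and the following 10% held 156. The lowest count came further in, where the slice from 30 to 40% of length, which spans the border of arm and centre, held 78 regions (12.3%). The innermost slice held 123 (19.4%). All slices take the same share of length, so the innermost was near its share and the counts did not fall steadily inwards. The groups found in both replicates and in replicate 2 only had their largest share in that same slice from 30 to 40%, with 24.5% and 28.1%. The 43 regions within 500 kb of a chromosome end were 6.79% of all, and the median distance to the nearer end was 3.74 Mb (exact order-statistic 95% interval 3.48 to 4.05 Mb), against 4.54 Mb for peaks in both replicates and 4.76 Mb for those in replicate 2 only.

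The longest stretch without any such region had its midpoint in the centre on every autosome but IV. The longest of these was on I, from 4959774 to 6154406 (WS220, 1195 kb), in which 4 peaks of both replicates, 8 of replicate 2 only and 9 of neither were called. On V it ran from 13239865 to 14277511 (1038 kb), on III from 5602245 to 6566871 (965 kb) and on II from 5237903 to 6081878 (844 kb), each with its midpoint in the centre. The exception was IV, whose longest stretch, 4926931 to 5771990 (845 kb), was on the left arm and held 3 autosomal peaks of the other groups in all. With the centre as the middle 50% of length, that stretch would have its midpoint in the centre too. Over 166 bins of 500 kb the median was 3 regions, 16 bins had none and the fullest, III 6500001 to 7000000, had 21. The empty bins lay on arms as well as in centres.

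Most regions had another such region close by, a share near that over all autosomal peaks, which lie more densely. When neighbouring midpoints up to 10 kb apart were linked, 367 of the 633, or 58.0% (54.0 to 61.9%), had another such region beside them, in 132 clusters, and 266 stood alone. Most clusters were small: 90 were pairs and 28 were triplets. The 42 clusters of 3 or more regions held 187 of them, spanned 0.77 to 14.9 kb with a median of 3.13 kb, and lay on arms in 33 cases. By chromosome the linked share was highest on IV, with 67.3% (59.5 to 74.4%), and lowest on V, with 52.1% (43.5 to 60.7%). Over all 1763 autosomal whole-series peaks, linked among themselves, it was 57.8% (55.5 to 60.1%), and within the other groups it was 41.8% for peaks in both replicates, 34.1% for replicate 2 only and 22.5% for neither. These shares also depend on how many peaks a group holds. All autosomal peaks lay at 21.4 per Mb and the regions at 7.67 per Mb, so their near equal shares do not compare like densities. The group found in neither replicate, at 582, is closest in number to the 633.

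The cluster with the most regions was III 6566872 to 6576852, in the centre, with 16 regions over 9.98 kb. Their whole-series scores ran from 2.00 to 11.32 and their widths from 188 to 774 bp. Replicate 1 called 3 peaks there, with scores from 413 to 1736. The nearest replicate 2 peak was 29.4 kb away from the closest of the 16 regions. A second cluster, I 4341313 to 4356204 on the left arm, held 15 regions over 14.9 kb with whole-series scores from 3.53 to 9.42, under 2 replicate 1 peaks scoring 187 and 880. A cluster of the same size, IV 688825 to 698082 on the left arm, held 15 regions over 9.26 kb with whole-series scores from 1.55 to 6.55, under 3 replicate 1 peaks scoring 958 to 1918, and a replicate 2 peak lay 5.57 kb from it. In all 3 clusters the whole-series list thus held 15 or 16 separate peaks where replicate 1 had 2 or 3. Clusters of this size were not particular to the regions: linked the same way, the largest among the 249 peaks in both replicates held 17.

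**Figure D3:**
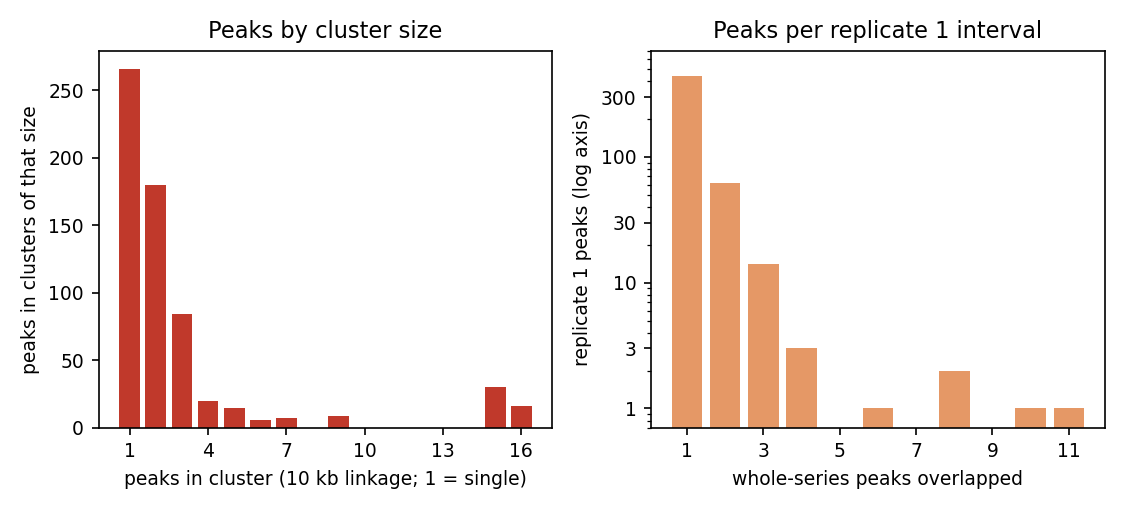
Left, number of replicate 1 only peaks in clusters of each size, with neighbouring midpoints linked up to 10 kb; right, number of replicate 1 peaks (log axis) by how many of the 633 whole-series peaks each overlapped. Single peaks and pairs held 266 and 180 of the 633, and 438 of the 522 replicate 1 peaks overlapped 1 of them.

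Part of this grouping was several calls under 1 replicate 1 peak, so the regions are not independent sites. The 633 regions lay over 522 replicate 1 peaks, of which 438 overlapped 1 region and 84 overlapped 2 or more. Those 84 covered 217 regions, 34.3% of all. The replicate 1 peak with the most regions was I 4345315 to 4357647, 12.3 kb wide with a score of 187, over 11 regions. It was followed by III 6569082 to 6574453 (5.37 kb, score 1736) over 10. Counted once per replicate 1 peak, 38.7% of 509 regions (34.5 to 43.1%) had another within 10 kb, and with regions closer than 500 bp merged it was 29.6% of 477 (25.5 to 33.9%). Merged the same way, the shares were 22.7% for peaks in both replicates (17.2 to 29.0%), 18.3% for replicate 2 only (13.8 to 23.5%) and 19.0% for neither (15.8 to 22.4%). The share on arms moved little by comparison, to 73.3% (69.2 to 77.1%) when each replicate 1 peak was counted once.

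Replicate 2 called 501 peaks over the 82.6 Mb of the autosomes, and the rule bars any overlap of a region with them. The nearest replicate 2 peak was a median of 58.2 kb away, with quartiles of 24.6 and 126 kb and a longest distance of 762 kb. It was within 1 kb for 18 regions and within 10 kb for 90, or 14.2% (11.6 to 17.2%), and over 100 kb away for 213, or 33.6% (30.0 to 37.5%). The same distances were not measured for other positions. The values therefore do not show whether the regions lay further from replicate 2 than other parts of the autosomes. Whole-series peaks found in both replicates lay within 10 kb of 46 regions, or 7.27% (5.37 to 9.57%). For peaks in replicate 2 only it was 40 regions, or 6.32% (4.55 to 8.51%). For those in neither it was 106, or 16.7% (13.9 to 19.9%). These shares also depend on the number of peaks in each group, 249, 299 and 582. Of the 633 regions, 1 had a replicate 1 partner that itself overlapped a replicate 2 peak at another point, the partner being the replicate 1 peak with the longest overlap.

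In the whole-series list few of the regions were among the highest scoring peaks, and their median width was near that of all autosomal peaks. The groups were formed by replicate calls of the same series, so their differences in score and width describe the choice and are no separate support for it. The score is the authors' own peak caller value, on an unnamed scale, and it was used to rank and describe peaks within 1 list. Beside the replicate 1 scores it was set only in rank correlations and 1 plot. The median was 5.85 (exact order-statistic 95% interval 5.52 to 6.06), with quartiles of 4.09 and 8.00 and a range from 1.30 to 25.42. The medians were 17.2 for the 249 peaks in both replicates (14.9 to 19.6), 8.88 for replicate 2 only (8.40 to 10.2) and 4.44 for neither (4.22 to 4.67). Of the 633 regions, 6 scored above the median of the peaks in both replicates, and 6 were among the 176 highest scoring autosomal peaks. Replicate 1 alone stood behind 14.4% of the highest scoring 20% of autosomal peaks (51 of 353, 11.0 to 18.6%), and behind 41.4%, 47.6%, 40.3% and 35.8% of the following slices of that size. The highest slice was instead mostly peaks in both replicates (171) and in replicate 2 only (112).

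Median scores were 5.85 on arms (5.49 to 6.12) and 5.72 in centres (5.27 to 6.59), with intervals that overlapped. By chromosome the median score ran from 5.39 on IV and 5.44 on III to 6.25 on V and 6.67 on II. Median widths were 252 bp on arms (236 to 266 bp) and 265.5 bp in centres (246 to 304 bp). Over all 633 the median width was 257 bp (244 to 268 bp), with quartiles of 193 and 386 bp and a range from 146 to 6501 bp, and 18 regions were wider than 1 kb. All 1763 autosomal peaks had a median of 244 bp (237 to 250 bp). Peaks in both replicates had a median of 458 bp, those in replicate 2 only 288 bp and those in neither 188 bp. The regions covered 225 kb in all, more than the 183 kb of the 249 peaks in both replicates.

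**Figure D4:**
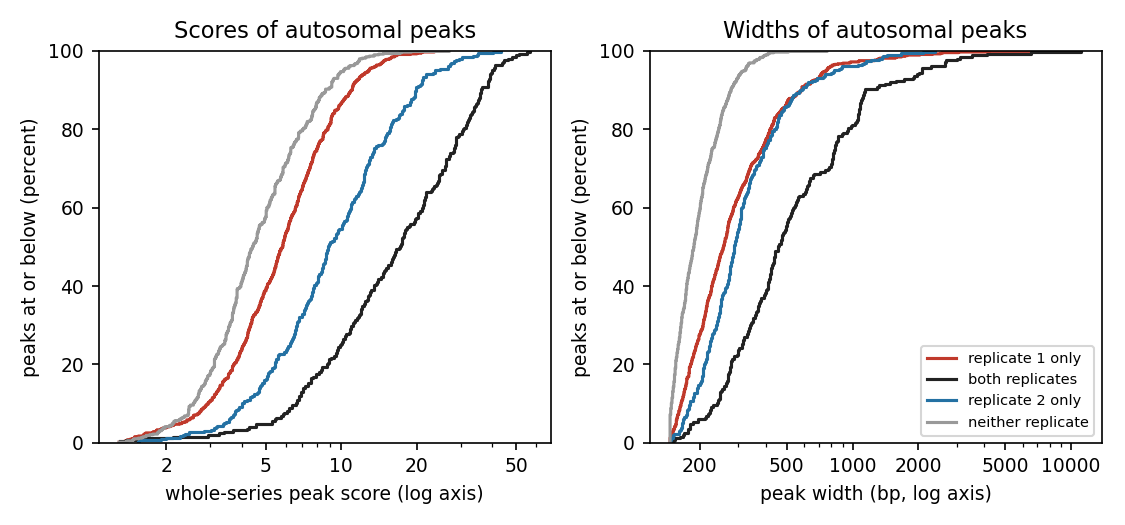
Percent of autosomal whole-series peaks at or below each score (left) and each width in bp (right), both on log axes, for the 4 groups by replicate support. In score the replicate 1 only peaks (median 5.85) lay between those in neither replicate (4.44) and those in replicate 2 only (8.88). In width they lay between the same groups (median 257 bp, against 188 bp and 288 bp).

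The rule requires a replicate 1 peak at every region, so the replicate 1 scores describe the choice and are no separate support for it. The replicate 1 scores are on another scale, from 50.01 upwards, with many of the highest tied at 3100. The partners had a median score of 213 with quartiles of 103 and 412, and 476 of the 633 regions, 75.2% (71.6 to 78.5%), had a partner above the autosomal median of the replicate 1 list, 103. Regions that shared a broad partner count several times in this share: over the 522 distinct peaks it was 68.4% (64.2 to 72.4%) and the median score was 175 (154 to 193). Among all 882 autosomal whole-series peaks that overlap replicate 1, 71.8% (68.7 to 74.7%) had a partner above that median. The 228 autosomal replicate 1 peaks that overlapped replicate 2 and none of the 633 regions had a median of 140 (112 to 183), and 60.1% of them lay on arms (53.4 to 66.5%). A further 633 autosomal replicate 1 peaks overlapped no peak of either other list; they equal the regions in number by coincidence, are other intervals, and had a median of 75.2 (71.9 to 79.5). Their share on arms was 80.1% (76.8 to 83.1%), against 73.2% (69.2 to 76.9%) for the 522.

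The partners were also wider than the regions over them, with a median of 549 bp and quartiles of 308 and 983 bp. Of the 633 regions, 400, or 63.2% (59.3 to 67.0%), lay wholly inside replicate 1 peaks, and 46 were covered for less than 50% of their width. Across the 633 regions the Spearman rho of whole-series and partner score was 0.14, and across 509 regions counted once per replicate 1 peak, by the highest scoring, it was 0.31. For the 249 peaks in both replicates it was 0.60. These points share 1 library, and regions under the same replicate 1 peak share its score. The rho of whole-series score and width was 0.39 across the 633.

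**Figure D5:**
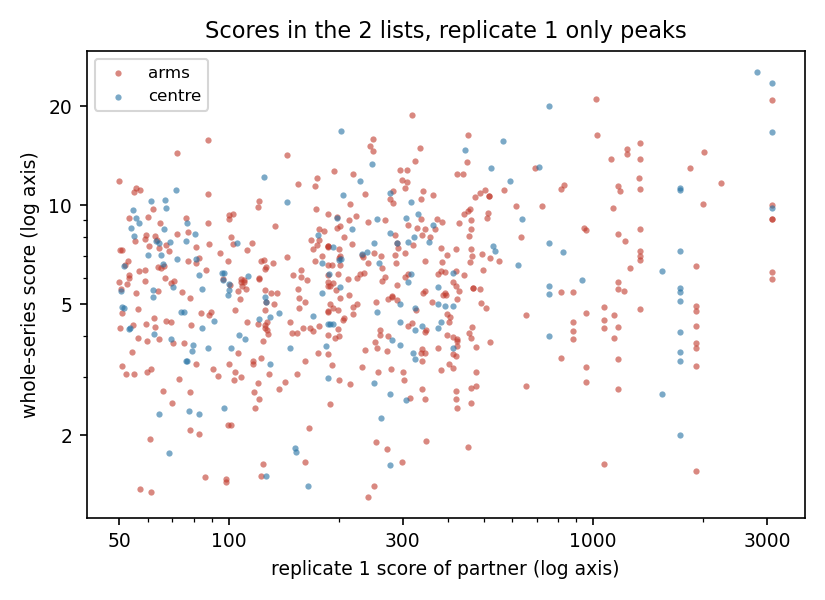
Whole-series score against the replicate 1 score of the partner peak for the 633 replicate 1 only peaks, both on log axes, coloured by arms and centre. The points spread widely (Spearman rho 0.14), and vertical strings of points are peaks that share 1 replicate 1 peak or the tied score of 3100.

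The highest scoring region was V 7988881 to 7991459 in the centre of V (WS220, 2579 bp), with a whole-series score of 25.42, rank 92 among the 1763 autosomal peaks. Replicate 1 had a peak of nearly the same extent there, scoring 2809 (rank 15 of its 1384 autosomal peaks), and its nearest replicate 2 peak was 244 kb away. Next came II 6185202 to 6186464 (1263 bp, score 23.53), also central, whose partner had the tied replicate 1 score of 3100 and whose nearest replicate 2 peak was 61.9 kb away. On IV the highest was 15636102 to 15636792 on the right arm (691 bp, score 21.04, replicate 1 score 1015), with a replicate 2 peak 9.55 kb away. On III it was 8862123 to 8863855 in the centre (1733 bp, score 20.04, replicate 1 score 759), with a replicate 2 peak 10.05 kb away. On I it was 10720119 to 10720386 on the right arm (268 bp, score 15.83), whose replicate 1 score of 87.5 was below the median of that list.

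The remaining regions among the 10 highest were all on V. The widest of the 633, V 3434576 to 3441076 on the left arm (6501 bp, score 20.82), matched a replicate 1 peak of 6588 bp with the tied score of 3100 and lay 754 kb from the nearest replicate 2 peak. V 8699738 to 8702801 in the centre (3064 bp, score 16.66) also had a partner at 3100 and lay 144 kb from replicate 2. The other 4 were narrower: V 2346719 to 2346952 (score 18.87, replicate 1 score 318), V 9090685 to 9090983 (16.76 and 203), V 2777438 to 2778024 (16.30 and 453) and V 15321387 to 15322244 (16.30 and 1028). Of these, V 9090685 to 9090983 lay 382 bp from a replicate 2 peak, so its support from replicate 1 alone rests on a short gap. The second widest region of all was I 10267714 to 10271932 on the right arm (4219 bp, score 15.49), under a replicate 1 peak of 10043 bp that overlapped 8 regions. Genes at these positions were not analysed here.

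Some regions stood at the edge of the rule. The 5 shortest overlaps with replicate 1 were 1 to 42 bp, the shortest at III 10050485 to 10050647 (score 3.87, replicate 1 score 59.5), followed by 13 bp at III 10123576 to 10123786 (5.85 and 50.07). The 5 regions nearest to replicate 2 were 128 to 348 bp from it: the nearest was III 396197 to 396424 (score 7.68, replicate 1 score 116), and the next, I 8619223 to 8619491, was 282 bp from it (7.24 and 537). Just outside, 5 peaks missed replicate 1 by 15 to 81 bp, among which I 9319977 to 9320130 missed a replicate 1 peak by 15 bp (score 7.69) and V 4552727 to 4552906 by 18 bp (7.94). On the side of replicate 2, V 19142639 to 19142792 was left out for an overlap of 111 bp (score 10.20) and II 6951433 to 6951655 for 146 bp (7.94); the 5 shortest such overlaps ran to 159 bp.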

How the data were processed

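Peak positions and peak scores were read from 3 lists: 1 for the whole series, whose source field names MACS v2, and 1 for each of the 2 ChIP samples, naming MACS. Coordinates are WormBase WS220, per the file headers; reads were aligned with BWA to ce10, per the submitters' processing notes. The score is the authors' deposited value per peak, of unnamed scale. Caller thresholds, the use of input, and how the whole-series list was made are not stated in the sources used, so read depth is unknown. Mitochondrial peaks were left out.

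Overlap required 1 bp. Chromosome length was the last peak end in any list. Shares carry exact (Clopper-Pearson) 95% intervals and medians exact order-statistic 95% intervals. Regions named are the 10 highest scoring, the highest of each autosome, the 3 widest, the 3 clusters with most regions, the replicate 1 peak over most regions, those nearest the rule's edge and the longest empty stretches. The regions and the comparisons were chosen with earlier results of these data known. The functions for overlap, linking and intervals were tested on simulated peaks. Alternatives changed the overlap, score limit, merging and the definition of arms. No genome or annotation of this build was used, so no sequences are shown. Python 3.11.15, numpy 2.4.6, scipy 1.17.1 and matplotlib 3.10.9 were used.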

Additional observations from a re-analysis of the deposited data

How the results depend on the processing

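Of 70 alternative values, 45 stayed within the 95% interval of the reported value (for counts, within 1.5 times) and 25 moved further. With 50% reciprocal overlap, 313 regions met the rule, 68.7% on arms, 27.8% within 10 kb of another, with a median width of 299 bp, a median score of 6.84 and 62.6% with a replicate 1 partner above that list's autosomal median; where 50% of the region had to be covered, the last share was 79.0%. Among the upper 50% of autosomal peaks by score there were 275 regions, 33.1% within 10 kb of another, with a median width of 301 bp and a median score of 8.48. With regions closer than 500 bp merged, 29.6% had another within 10 kb, the median width was 298 bp, the median score 6.36 and the share with a partner above the median 69.2%. Without replicate 2, that is with all 882 autosomal peaks that overlap replicate 1, 70.2% lay on arms, 57.7% were within 10 kb of another, the median width was 291 bp, the median score 6.99 and the share with a partner above the median 71.8%; without replicate 1 no region can be chosen. With the centre as the middle 50%, 55.8% lay on arms, which then held 50% of the length, against 44.2% of peaks in both replicates. Linking at 25 kb gave 63.3% with a neighbour, and the score per kb of width, another scale, had a median of 20.8. Alternatives added after the data were seen gave 38.7% with a neighbour, a median score of 6.24 and 69.4% with a partner above the median when each replicate 1 peak counted once, and 54.0% with a neighbour without the 4 clusters of most regions. Across the alternatives that kept the same arms, the share on arms ran from 68.7% to 77.3%; with 50% reciprocal overlap, the lowest, its interval (63.2 to 73.8%) included the 66.7% of length, unlike the reported one.

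No paired analysis was possible because the input samples have no peak list among the files used and no test over samples was made. Lengths from a reference of the same build were not run. Every region rests on the peak calls of 1 replicate, peaks cut from broad enrichment count several times, and read depth is unknown. A replicate 2 peak below its caller's limit cannot be told from none.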
